A study of Mus musculus with 4 samples.

Results

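The myelin genes *Prx* and *Pmp22* and the potassium channel gene *Kcna1*, 3 of the 470 genes of the deposited count table, were followed in Xenium in situ counts of 3 vagal ganglia sections. They were taken by name, with no threshold on a measured value. The sections, each 5 μm thick, came from adult male C57BL/6 mice given *A. alternata* extract intranasally (50 μL at 25 μg/mL on days 0, 3, 6 and 9), and the tissue was taken 16 hours after the last dose. All 3 sections were from exposed mice, so no effect of exposure can be read from them. The sources used here do not state whether the sections came from separate mice. Thus p-values refer to the spread between these sections, which may be technical. The test used takes that spread in part from a variance shared over genes.

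Myelin is the membrane sheath that Schwann cells wrap around large peripheral axons. Periaxin, encoded by *Prx*, is a scaffold protein of myelinating Schwann cells that ties the outer sheath to the matrix around it. Peripheral myelin protein 22, encoded by *Pmp22*, is a membrane protein of compact myelin whose gene dosage is known to cause inherited neuropathy. *Kcna1* encodes the voltage-gated potassium channel subunit Kv1.1, which sits in the axon membrane beside the nodes of myelinated fibers and is known from neurons. A segmented cell of a tissue section can hold transcripts of its neighbours, so a transcript counted in a cell is not always made by it. No doublet caller was run, and the part of neighbours' transcripts in the levels below was not tested.

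On the mouse build GRCm38 with GENCODE vM21 annotation, *Prx* (ENSMUSG00000053198) lies on chromosome 7 from 27499324 to 27520214 on the plus strand. *Pmp22* (ENSMUSG00000018217) lies on chromosome 11 from 63128982 to 63159547 on the plus strand, and *Kcna1* (ENSMUSG00000047976) on chromosome 6 from 126640397 to 126646384 on the minus strand. All 3 are protein-coding genes. The sequence before the start of *Prx* and of *Pmp22* is shown because both myelin genes rose together in the cells described below. It was taken from RefSeq on GRCm38.p6, at chr7:27499074-27499304 for *Prx* and chr11:63128732-63128981 for *Pmp22*, on the plus strand, and each window ends at the base before the gene start of that table. For *Pmp22* the first of 4 windows in the table is shown. Capitals mark matches on either strand to the EGR core GTGGGNG or the TEAD core GGAATG.
Prx: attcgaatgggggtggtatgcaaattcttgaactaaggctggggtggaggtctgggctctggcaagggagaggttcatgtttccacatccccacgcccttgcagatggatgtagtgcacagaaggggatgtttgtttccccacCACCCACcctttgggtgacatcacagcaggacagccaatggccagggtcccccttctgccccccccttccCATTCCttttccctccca
Pmp22: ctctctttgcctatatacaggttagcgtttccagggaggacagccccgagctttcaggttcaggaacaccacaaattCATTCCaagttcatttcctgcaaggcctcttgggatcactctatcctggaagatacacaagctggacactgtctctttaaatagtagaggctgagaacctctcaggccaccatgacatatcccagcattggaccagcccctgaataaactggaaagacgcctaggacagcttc
The *Prx* window held an EGR match starting 88 bases before the gene start and a TEAD match 18 bases before it, both on the minus strand. The *Pmp22* window held a TEAD match 173 bases before the start, also on the minus strand, and no EGR match. The SOX core letters ACAAAG or ACAATG were in neither window. Of 32851 promoter windows cut to the same 231 bases as that of *Prx*, 25.97% held an EGR match, 11.82% a TEAD match and 24.01% a SOX match, and at the 250 bases of *Pmp22* the shares were 28.07%, 12.64% and 25.24%. These letter matches are a description of the windows and say nothing of binding.

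Segmentation gave 3211, 2716 and 3858 cells in sections 1, 2 and 3, with totals of 70313, 73733 and 108121 transcripts and a median of 7 to 9 per cell. No cell barcode was shared between sections. Cells with at most 1 transcript of *Snap25*, *Tubb3*, *Scg2* and *Gap43* together were called non-neuronal (8003 cells), and cells with 5 or more were called neurons (1404 cells). The other 378 cells were left as unclassed. To describe a non-neuronal cell, at least 5 transcripts of genes other than the 3 members were required, which left 4733 cells (1434, 1256 and 2043 per section).

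*Prx* had 3669 transcripts and was rank 16 of the 470 genes, *Pmp22* had 3973 (rank 13) and *Kcna1* had 2206 (rank 31). No cell held more than 10 transcripts of one member (9 of *Prx*, 10 of *Pmp22* and 8 of *Kcna1*). The members differed in where their transcripts lay. Neurons held 6.62% of the *Prx* transcripts, 14.7% of those of *Kcna1* and 32.6% of those of *Pmp22*. Non-neuronal cells with at least 5 other transcripts held 59.6%, 55.6% and 44.5% of *Prx*, *Kcna1* and *Pmp22*. Smaller cells outside the later comparisons, non-neuronal with under 5 other transcripts, held 31.5%, 25.9% and 20.1%.

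Non-neuronal cells were parted by 2 or more transcripts of a marker list into fat, endothelial, matrix (connective tissue), macrophage and mural (vessel wall) cells, and cells that reached no list, or several alike, were called ungated. None of the 3 members was used for this. Levels are per-million counts (CPM), scaled to the total of all transcripts of the class, and differences in probe efficiency mean that they compare classes, not genes. In the 3018 ungated cells, *Prx* was at 61141, 63303 and 67035 CPM in sections 1, 2 and 3, a mean of 63826 ± 2982 (SD, n = 3 sections). *Pmp22* was at 49618, 49511 and 53264 CPM, and *Kcna1* was at 35273, 35601 and 37257 CPM. For each member every section of the ungated class lay above every section of the other 9 classes on this scale. Non-neuronal cells with under 5 other transcripts, which were not among these classes, had higher means still. These were 109760 CPM for *Prx*, 75539 for *Pmp22* and 53938 for *Kcna1*, at a median of 3 transcripts per cell. The totals of these cells are small by definition, and the part of cell depth in the CPM levels was not tested. Neurons were deeper, with a median of 79 to 100 transcripts against 8 to 9 in ungated cells. Per cell, *Pmp22* averaged 0.526 transcripts in ungated cells and 0.910 in neurons. *Prx* (0.662 against 0.174) and *Kcna1* (0.373 against 0.229) stayed higher in ungated cells. The ungated cells are known by these exclusions alone, so they were not given a cell type. The 1181 of them with 2 or more transcripts of the other 12 glia and myelin genes, a class chosen after the data were seen, had higher means, at 74821 CPM for *Prx*, 63245 for *Pmp22* and 41938 for *Kcna1*.

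**Figure D1:**
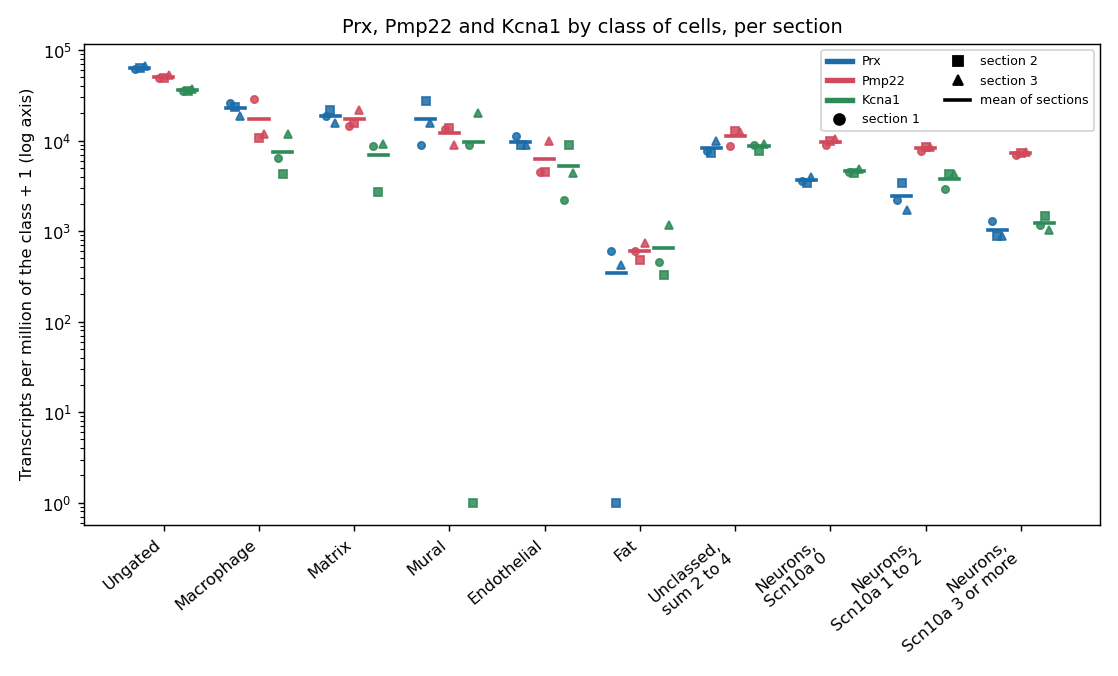
CPM plus 1 (log axis) of *Prx*, *Pmp22* and *Kcna1* in 10 classes of cells. Points are the 3 sections and lines their means. On the CPM scale, among the classes drawn, the ungated non-neuronal cells are highest for each member and fat cells have the lowest mean. Non-neuronal cells with under 5 other transcripts are not drawn. The points at the bottom are *Prx* in fat cells and *Kcna1* in mural cells of section 2, both with 0 transcripts.

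Fat cells stood at the other end. In 1038 fat cells there were 8 *Prx*, 14 *Pmp22* and 16 *Kcna1* transcripts, with means of 341 ± 309, 607 ± 126 and 644 ± 449 CPM (SD, n = 3 sections). No *Prx* transcript was found in 294 fat cells of section 2, which allows a level of up to 485 CPM (3 counts of the total) and a share of up to 1.02% of cells. Fat cells do not make myelin. These levels were found at a median of 19 to 22 transcripts per cell, and they set no floor for the other classes.

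Between these ends, the order differed by gene. *Prx* fell from macrophage (22674 ± 3749 CPM, n = 3 sections) over matrix (18690 ± 2923), mural (17326 ± 9376) and endothelial cells (9646 ± 1270) to unclassed cells (8266 ± 1339), where the sections of each neighbour in this order overlapped. Below these, and apart from each other by mean and range with no overlap, came the neurons, at 3644 CPM with no *Scn10a*, 2445 with 1 to 2 *Scn10a* transcripts and 1021 with 3 or more. The small classes set these middle levels with little precision, since macrophage cells numbered 102 and mural cells 57. In 9 mural cells of section 2, with 73 transcripts in all, *Kcna1* was at 0, which allows up to 41096 CPM, more than the level of the ungated cells.

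For *Pmp22* the levels of neurons and gated cells met. It was at 17390 ± 3993 CPM in matrix, 17175 ± 10198 in macrophage, 11987 ± 2605 in mural and 11289 ± 2233 in unclassed cells, and neurons with no *Scn10a* (9757 ± 789) overlapped the unclassed cells. Endothelial cells (6299 ± 3177) overlapped neurons with 3 or more *Scn10a* transcripts (7275 ± 321). *Kcna1* means ran from 9691 CPM in mural to 5207 in endothelial cells, and no neighbours from mural cells down to neurons with no *Scn10a* (4567 ± 219) were apart. The lowest *Kcna1* levels, in neurons with 3 or more *Scn10a* transcripts (1222 ± 228) and fat cells, overlapped as well.

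Genes with a pattern most like each member were ranked by Pearson's r of log2(CPM + 1) over the 30 combinations of class and section, among 215 genes with at least 100 transcripts. These points share cells' libraries and depths within a section, so r is a description. For *Pmp22* the most alike were *Gatm*, of creatine synthesis (r = 0.95), *Ndrg1*, a Schwann cell gene mutated in an inherited neuropathy (0.92), and *Prx* (0.83), followed by *Cp* (0.68) and *Timp3* (0.64). For *Prx* they were *Gatm* (0.87), *Ndrg1* (0.83), *Pmp22* (0.83), *Cp* (0.81) and *Timp3* (0.79). For *Kcna1* the first 5 included *Ptn* (0.89), *Fxyd6* (0.84), *Calca* (0.78) and *Anxa2* (0.75), with *Pmp22* at rank 40 and *Prx* at rank 55. The *Kcna1* list rested on 1 point, the mural cells of section 2. Without points where the member was at 0, *Gatm* (0.87), *Ndrg1* (0.85), *Pmp22* (0.83), *Prx* (0.83) and *Timp3* (0.82) were first for *Kcna1* over 29 points. Leaving out such points is an alternative chosen after the data were seen, and it put *Timp3* (0.86) and *Cp* (0.85) before *Ndrg1* (0.84), *Gatm* (0.82) and *Pmp22* (0.80) for *Prx*.

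Within non-neuronal cells the members were often found in one cell. Of the 4733 cells, 2757 held none of them, 462 held *Prx* alone, 320 *Kcna1* alone and 244 *Pmp22* alone. Both *Prx* and *Pmp22* without *Kcna1* were in 356 cells, *Prx* and *Kcna1* without *Pmp22* in 217, and *Pmp22* and *Kcna1* without *Prx* in 133. All 3 were in 244 cells. The cells with all 3 made up 3.91% (exact 95% binomial interval 2.96 to 5.04), 4.46% (3.39 to 5.75) and 6.46% (5.43 to 7.62) of the cells of sections 1, 2 and 3, and these intervals cover counting error only.

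If the members fell on cells independently, the product of their single shares would give 0.795%, 0.999% and 1.37% of cells with all 3 in the 3 sections. The observed share was 4.91, 4.46 and 4.73 times that product. For *Prx* with *Pmp22* but no *Kcna1* it was 1.81, 1.72 and 1.57 times. Cells with *Pmp22* and *Kcna1* but no *Prx* were near the product in each section, at 1.08, 0.951 and 0.910 times. The product uses shares over all cells, so a value near it does not show independence among cells with no *Prx*. Of those, 133 held both, 244 *Pmp22* alone, 320 *Kcna1* alone and 2757 neither. Cells with a single member were fewer than the product, on average 0.567 times for *Prx*, 0.433 for *Pmp22* and 0.606 for *Kcna1*. The median of other transcripts was 8 to 10 in cells with all 3 and 10 to 12 in cells with none. It was 7 to 8 in cells with *Prx* alone, 7 to 9 with *Pmp22* alone and 7 to 8 with *Kcna1* alone. The part of cell depth in these shares was not tested.

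**Figure D2:**
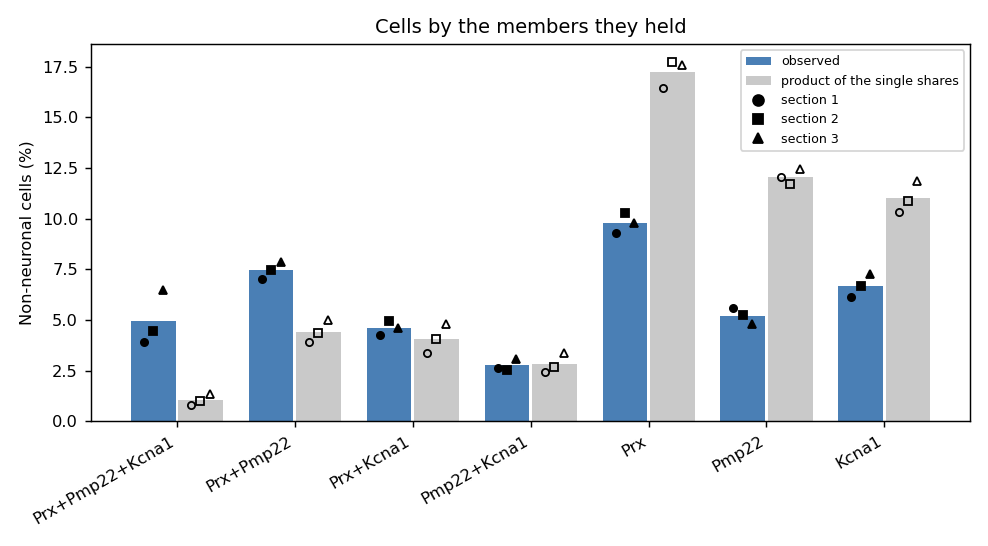
Share of non-neuronal cells (%) with each combination of the members, as observed (blue bars, filled points) and as the product of the single shares (grey bars, open points). Bars are means of 3 sections and points are sections. Cells with all 3 members average 4.94%, against 1.05% by the product, and cells with 1 member are fewer than by the product.

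Odds ratios give the same relation pair by pair. The odds ratio of *Prx* and *Pmp22* was 6.60, 6.52 and 7.99 in sections 1, 2 and 3. That of *Prx* and *Kcna1* was 3.79, 3.64 and 3.69, and that of *Pmp22* and *Kcna1* was 3.52, 3.25 and 4.19. *Prx* with *Pmp22* was thus higher than either pair with *Kcna1* in every section. With 3 sections no exact test can pass 0.05, so no test is given. Among 115 partner genes with at least 20 positive cells in each section, *Pmp22* ranked first for *Prx* and *Prx* first for *Pmp22*, and the median odds ratio over all partners was 0.757 and 0.706. For *Kcna1*, *Prx* was first and *Pmp22* second (median of all partners 0.767). The partners next to them were *Ndrg1* (odds ratio 5.08 with *Prx* and 4.98 with *Pmp22*) and *Gatm* (3.56 with *Kcna1*).

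Fat cells, which hold almost none of the members, are part of these odds. In the 3018 ungated cells alone, an alternative chosen after the data were seen, the odds ratio of *Prx* and *Pmp22* was 3.55, 3.71 and 4.94, that of *Prx* and *Kcna1* was 2.21, 1.87 and 2.10, and that of *Pmp22* and *Kcna1* was 2.07, 1.78 and 2.52. All were thus smaller than over all non-neuronal cells and above 1 in every section, and *Prx* with *Pmp22* was still the highest pair in each. Cell depth moved with the odds too, and fat cells were deeper than ungated cells (medians of 19 to 22 against 8 to 9 transcripts). Bins of depth therefore do not part depth from fat content. Among cells with 5 to 9 other transcripts, the odds ratio of *Prx* and *Pmp22* was 3.84, 3.89 and 5.92, and among those with 15 to 24 it was 14.5, 13.8 and 14.9. Pooled over 4 such bins of other transcripts (Mantel-Haenszel), it averaged 5.93, that of *Prx* and *Kcna1* 3.11 and that of *Pmp22* and *Kcna1* 3.12 (geometric means of 3 sections).

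The number of transcripts followed as well. Cells with no *Prx* held on average 0.155 *Pmp22* transcripts, and 0.628, 1.12 and 1.73 in cells with 1, 2 and 3 or more *Prx* transcripts (means of 3 sections). In cells with 3 or more *Prx* transcripts the sections had 1.43, 1.78 and 1.99. *Kcna1* went from 0.161 to 0.461, 0.563 and 0.598 over the same steps, and its SD between sections was 0.110 and 0.112 at the last 2 steps, so these did not differ beyond their spread. From the side of *Kcna1*, *Pmp22* was at 0.266, 0.765, 0.899 and 0.774 in cells with 0, 1, 2 and 3 or more *Kcna1* transcripts, with an SD of 0.300 at the last step (61 cells). Other transcripts had a median of 7 to 10 per cell at every step of the 3 genes but 3 or more of *Kcna1*, where it was 7 to 15.

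To find the genes that go with each member, counts of positive and zero cells were summed per section and compared with edgeR's quasi-likelihood test, with the section as a block and the splitting gene left out of the test and of the CPM totals. Cells with *Prx* (1279, against 3454 without) had 34 of 155 genes higher and 46 lower at an adjusted p under 0.05, 21.9% and 29.7% of the genes tested. *Pmp22* was the gene with the largest rise, at 85143, 83378 and 93518 CPM in cells with *Prx* and 12329, 11092 and 10712 in cells without (log2 fold change 3.00, standard error 0.16, edgeR adjusted p = 5.17e-06). The groups did not overlap. The share of all tested genes whose sections were apart in this way is not given, here or in the comparisons below. *Kcna1* was at 47785, 47301 and 46982 CPM with *Prx* and 11449, 10702 and 13151 without (2.05, standard error 0.13, adjusted p = 8.92e-06 from edgeR).

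Among the 5 genes other than the members with the largest rise in cells with *Prx* were *Ccn3*, a matricellular protein gene (log2 fold change 2.33), *Aif1l* (2.20), *Fxyd6*, a regulator of the sodium pump (2.18), and *Cryab*, a small heat shock protein gene abundant in Schwann cells (2.09). Each was higher in 3 of 3 sections. *Cryab* was at 21431, 29129 and 21856 CPM with *Prx* and 5578, 6327 and 5547 without. The largest falls were in fat genes and genes also made by fat or liver, with *Car3* at -5.69, *C3* at -5.23, *Cox8b* at -4.89, *Pck1* at -4.81 and *Hp* at -4.67. The falls of *Pck1*, *Car3*, *C3* and *Hp* were larger without section 3, at -8.37, -7.88, -6.80 and -6.59, and in another order. In cells with *Prx*, *Car3* was at 579.2, 534.5 and 4609 CPM in sections 1, 2 and 3.

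Of the 12 genes of the glia and myelin list other than the members, 8 were tested in the split by *Prx*, and 5 rose and none fell, with a median log2 fold change of 1.15 beside 0.03 over all genes. *Ndrg1* (2.05), *Sox2*, a transcription factor of glia (1.04), and *Lpar1*, a lysophosphatidic acid receptor of Schwann cells (0.86), were among the 5, with *Cryab*. *Fxyd3* (1.26, edgeR adjusted p = 0.0562), *Cldn11* (0.70, adjusted p = 0.174 from edgeR) and *Ptn* (-0.04, adjusted p = 0.814 from edgeR) did not pass. Without section 3 *Sox2* no longer passed (1.02, adjusted p = 0.0716 from edgeR). Of the other lists, 6 of 6 fat genes, 5 of 6 endothelial genes and 5 of 9 matrix genes tested fell, while the matrix genes *Lum* and *Mfap5* rose. Of 5 macrophage and 4 mural genes tested 1 and 2 fell. In the list of Mas-related receptors, which are known from sensory neurons, *Mrgpra3* (1.29) and *Mrgpra2b* (1.85) rose, and of the 6 channel genes tested *Trpm3* (0.64) alone rose. Of 7 neuron genes tested *Stmn1* (1.85) rose and the summed neuron list was at 61122 to 65041 CPM of genes other than the members in cells with *Prx* against 26994 to 28987 without. *Stmn1* made up much of that sum, and the 15 other genes of the list were at 21277 to 25822 CPM against 16539 to 18207. The neuron list holds *Snap25*, *Tubb3*, *Scg2* and *Gap43*, whose sum of at most 1 defined the non-neuronal cells. Its levels are thus capped by that choice in both groups of each split. The part of neuronal transcripts in these results was not tested.

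Cells with *Pmp22* (977, against 3756 without) had 34 of 149 genes higher and 39 lower, 22.8% and 26.2%. With library size alone in place of TMM factors the split was 27 higher and 47 lower. Without section 1, 48 genes passed in place of 73. *Prx* had the largest rise, at 107301, 99525 and 105642 CPM in cells with *Pmp22* and 19071, 21337 and 19611 without (log2 fold change 2.54, standard error 0.11, edgeR adjusted p = 1.94e-67). *Kcna1* was at 43879, 40761 and 47109 CPM against 13958, 14128 and 14596 (1.79, standard error 0.12, adjusted p = 2.37e-35 from edgeR). The very small p-values draw on a variance shared over genes and not on 3 sections of one gene. After *Prx*, the 5 largest rises included *Cryab* (2.31), *Ccn3* (2.21), *Fxyd6* (2.17) and *Fxyd3* (2.09), and the largest falls in *Pck1* (-4.44), *Hp* (-4.25), *Aqp7* (-3.77), *Car3* (-3.73) and *C3* (-3.63). Of 7 glia and myelin genes tested 6 rose, with a median of 2.00 beside -0.01 over all genes, and *Ptn* (-0.01, edgeR adjusted p = 0.947) did not pass. *Fxyd3* no longer passed without section 1 (1.73, adjusted p = 0.109 from edgeR), nor *Lpar1* without section 2 (0.53, adjusted p = 0.130 from edgeR). The 6 fat genes tested fell (median -3.59), as did 5 of 6 endothelial and 5 of 9 matrix genes, and *Mfap5*, *Mrgpra3*, *Trpm3*, *Gap43* and *Stmn1* of the matrix, Mas-related, channel and neuron lists rose.

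Cells with *Kcna1* (914, against 3819 without) had 31 of 150 genes higher and 43 lower, 20.7% and 28.7%. *Pmp22* was at 70728, 65118 and 69291 CPM with *Kcna1* and 19423, 19249 and 20870 without (log2 fold change 1.71, standard error 0.11, edgeR adjusted p = 7.71e-05). *Prx* was at 79313, 76030 and 78904 CPM against 25069, 26476 and 26586 (1.51, standard error 0.11, adjusted p = 0.000145 from edgeR). Neither overlapped between cells with and without *Kcna1*. The other 5 genes with the largest rise included *Fxyd3* (1.86), *Sostdc1*, a secreted BMP and Wnt antagonist (1.66), and *Tnfaip6* (1.66). All 7 glia and myelin genes tested rose, *Ptn* (0.39, edgeR adjusted p = 0.0327) with them, at a median of 1.48 beside -0.22 over all genes. *Ptn* did not pass without section 1 (0.30) or section 2 (0.29), nor *Fxyd3* without section 1 (1.87). The 6 fat genes tested fell (median -4.09), as did 5 of 6 endothelial and 5 of 9 matrix genes, and the Mas-related *Mrgpra1* and *Mrgpra3* rose.

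In the split by *Kcna1*, 3 of 9 neuron genes tested rose (*Scg2*, *Scg3* and *Stmn1*) and 2 of 7 channel genes, *Trpc4* (1.12) among them, beside 20.7% of all genes tested. The summed neuron list was at 54834 to 62394 CPM of genes other than the members in cells with *Kcna1* against 29493 to 31569 without, and without *Stmn1* at 22607 to 33197 against 16235 to 17321. The corresponding range for the glia and myelin list was 169506 to 207311 against 67187 to 73926. In cells with a neuronal sum of 0, the log2 fold changes by *Prx* were 3.10 for *Pmp22* and 2.15 for *Kcna1*, those by *Pmp22* were 2.56 for *Prx* and 1.84 for *Kcna1*, and those by *Kcna1* were 1.65 for *Prx* and 1.85 for *Pmp22*.

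Over the ungated cells alone, fewer genes passed, 24 of 84 by *Prx*, 31 of 83 by *Pmp22* and 30 of 82 by *Kcna1*. The members kept their direction and passed in each, and the log2 fold changes were smaller. By *Prx*, *Pmp22* was at 2.12 and *Kcna1* at 1.16. By *Pmp22*, *Prx* was at 1.62 and *Kcna1* at 0.88. By *Kcna1*, *Pmp22* was at 0.72 and *Prx* at 0.52. Of the glia genes, *Lpar1* no longer passed in any of the 3 splits (0.10, 0.11 and 0.13), whereas *Cryab* (1.28, 1.49 and 0.67) and *Ndrg1* (1.24, 1.15 and 0.34) did in all 3. *Sox2* passed by *Pmp22* (0.68) but no longer by *Prx* (0.15, edgeR adjusted p = 0.569) or *Kcna1* (0.46, adjusted p = 0.101 from edgeR). *Ptn* fell by *Pmp22* (-0.48, adjusted p = 0.00885 from edgeR) and no longer passed by *Kcna1* (0.016, adjusted p = 0.963 from edgeR).

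Cells with 1 member alone still held glia transcripts. As CPM of genes other than the members, *Ndrg1* was at 75866 ± 2314 (SD, n = 3 sections) in cells with *Prx* alone, 65128 ± 12844 with *Pmp22* alone and 52560 ± 4203 with *Kcna1* alone, against 114217 ± 25225 with all 3 and 13946 ± 1800 with none. *Sox2* was at 12026 ± 107 with *Pmp22* alone, 10477 ± 1469 with *Kcna1* alone and 6225 ± 915 with *Prx* alone, where the sections of the first and second overlapped and those of the third lay below both. Cells with *Pmp22* and *Kcna1* had the highest *Sox2* mean (13719 ± 5846). The fat gene *Car3* was at 4620 ± 6522 with *Prx* alone, 32922 ± 8179 with *Pmp22* alone and 16265 ± 5827 with *Kcna1* alone, against 1089 ± 1887 with all 3 and 152547 ± 15727 with none. The glia genes *Aqp4*, *Gfap* and *Mlc1* gave 1, 2 and 0 transcripts in the 244 cells with all 3 members. In the 2757 cells with none they gave 6, 14 and 5, and these counts are too few to compare.

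In neurons the members were compared by *Scn10a*, a sodium channel gene of nociceptive sensory neurons. Neurons with no *Scn10a* transcript (237 cells) were set against neurons with 3 or more (772 cells). The neurons with no *Scn10a* had 41 genes higher (28.5% of the 144 tested) and 29 lower (20.1%). Without section 1, 44 genes passed in place of 70, with 16 higher and 28 lower. The genes that led included *Slc17a7*, a vesicular glutamate transporter (3.73), *Vsnl1*, a neuronal calcium sensor (2.64), *Thbs4* (2.26) and *Car2*, a carbonic anhydrase (2.08), among the higher, and *Mrgpra2b* (-3.66), *Mgll* (-2.47), *Mrgpra1* (-2.28), *Areg* (-2.02) and *Sez6l* (-1.52) among the lower.

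*Kcna1* was at 4474, 4410 and 4816 CPM in neurons with no *Scn10a* and, leaving *Scn10a* out of the total, at 1270, 1581 and 1091 CPM in those with 3 or more (log2 fold change 1.72, standard error 0.30, edgeR adjusted p = 2.47e-07). *Prx* was at 3579, 3430 and 3924 CPM against 1400, 960 and 935 (1.65, standard error 0.33, adjusted p = 4.89e-06 from edgeR). The groups did not overlap for either gene, though the share of all tested genes apart in this way is not given. As in the split by *Pmp22*, these p-values draw on a variance shared over genes. *Pmp22* was at 8949, 9799 and 10524 CPM against 7457, 7904 and 8103, which did not overlap either, but it did not pass (0.21, standard error 0.19, adjusted p = 0.362 from edgeR).

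On the scale of transcripts per cell the values were closer or turned. The neurons with no *Scn10a* were shallower, with a median of 49 to 51 transcripts against 119 to 140. *Kcna1* was at 0.267, 0.250 and 0.300 transcripts per cell with no *Scn10a* and 0.173, 0.236 and 0.181 with 3 or more. *Prx* was at 0.213, 0.194 and 0.244 against 0.190, 0.143 and 0.155. *Pmp22* turned, at 0.533, 0.556 and 0.656 against 1.01, 1.18 and 1.35 transcripts per cell. The shares of neurons with a *Pmp22* transcript were 34.7% to 36.0% against 51.8% to 61.8%, those with *Kcna1* 14.7% to 21.1% against 12.4% to 13.9%, and those with *Prx* 9.72% to 15.6% against 9.70% to 14.2%. When each neuron was thinned to 30 transcripts other than *Scn10a*, *Kcna1* still passed (log2 fold change 1.81), while *Prx* did not (0.57, edgeR adjusted p = 0.364).

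**Figure D3:**
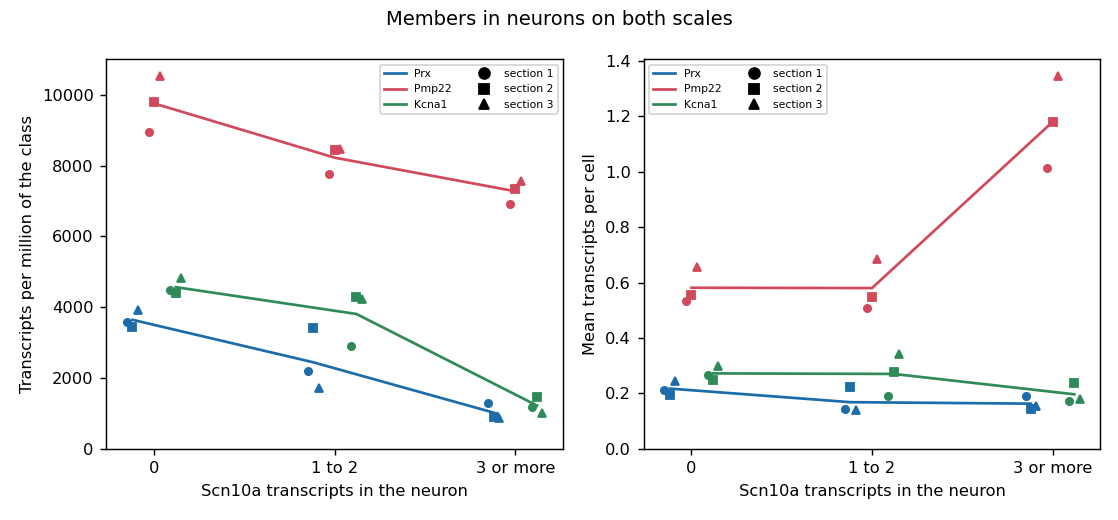
*Prx*, *Pmp22* and *Kcna1* in neurons with 0, 1 to 2, and 3 or more *Scn10a* transcripts, as CPM of the class (left) and mean transcripts per cell (right). Lines are means of 3 sections and points are sections. On the CPM scale, where the total includes *Scn10a*, the means of all 3 members are lower with more *Scn10a*. The change of *Pmp22* did not pass in the edgeR test. Per cell *Pmp22* goes from 0.581 to 1.18.

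Glia genes moved with *Kcna1* and *Prx* between these neurons. All 6 glia and myelin genes tested were higher in neurons with no *Scn10a*, with a median log2 fold change of 1.31 beside 0.01 over all genes, and the summed list of 12 genes (12 of 12 detected) was at 61220 to 70324 CPM of genes other than the members against 21563 to 24279. *Sox2* (1.67), *Ptn* (1.38) and *Ndrg1* (1.25) were among them. *Cryab* no longer passed without section 2 or without section 3 (0.77 in each), nor *Lpar1* without section 1 (0.85). In neurons with no transcript of *Prx* or *Ndrg1*, an alternative chosen after the data were seen, *Kcna1* had 21 transcripts in 92 neurons with no *Scn10a* (2770, 5604 and 4108 CPM) and 68 in 331 neurons with 3 or more (1375, 1475 and 914 CPM). The groups did not overlap, and its log2 fold change was 1.59 (standard error 0.41), just past the threshold (edgeR adjusted p = 0.0485). Per cell the groups overlapped, at 0.148, 0.250 and 0.270 against 0.196, 0.250 and 0.172. *Pmp22* was at 0.17 there (adjusted p = 0.618 from edgeR). Other glia genes were still higher in these neurons without *Scn10a*, with *Sox2* at 2.02, *Ptn* at 1.77 and *Lpar1* at 1.65, while *Cryab* was at 0.79 (adjusted p = 0.175 from edgeR).

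The balance of the members also differed between neurons and other cells. For each *Prx* transcript, non-neuronal cells held 0.815, 0.775 and 0.824 *Pmp22* transcripts in sections 1, 2 and 3, neurons with no *Scn10a* held 2.50, 2.86 and 2.68, and neurons with 3 or more held 5.33, 8.24 and 8.67. These 3 ranges did not overlap. Neurons with 1 to 2 *Scn10a* transcripts held 3.56, 2.46 and 4.90, which overlapped the neurons with no *Scn10a*. For *Kcna1* there were 0.566, 0.536 and 0.571 transcripts per *Prx* transcript in non-neuronal cells, 1.25, 1.29 and 1.23 in neurons with no *Scn10a*, 1.33, 1.25 and 2.45 in those with 1 to 2, and 0.907, 1.65 and 1.17 in those with 3 or more. The neuron classes thus overlapped for *Kcna1* and all lay above the non-neuronal cells. The neuron ratios rest on few *Prx* transcripts. There were 16, 14 and 22 in neurons with no *Scn10a* in sections 1, 2 and 3. Neurons with 1 to 2 held 18, 28 and 20, and those with 3 or more 43, 34 and 48. No test was run on these ratios, and their ranges leave out counting error.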

How the data were processed

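In situ probe counts (Xenium) of 3 vagal ganglia sections of exposed mice were analysed. Signals were decoded on the instrument and assigned to segmented cells, and the authors deposited whole-number transcript counts per gene and cell, with no normalization. Xenium Ranger and Seurat are the tools named in the methods. No filter on cells is given in the sources used here. A lung section and the deposited per-cell metadata were not used here. The prefix of each cell name gave its section.

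Cells are not replicates, so counts were summed per section and class and tested with edgeR 4.0.16 in R 4.3.3 (quasi-likelihood, TMM, filterByExpr, section as a block, Benjamini-Hochberg at 0.05 over all genes tested). The block pairs the 2 sums of the same section. The methods give no test for these counts. Odds ratios had 0.5 added to each cell of the table, and no test was run on them. Intervals are exact binomial at 95%. Alternatives used DESeq2 1.42.0, limma 3.58.1 on log2(CPM + 1), other thresholds, thinned cells and each section left out, and the fits were tested on simulated data. Python 3.11.15 with pandas 2.3.3, numpy 2.4.6 and scipy 1.17.1 gave all other values. No doublet caller was run. Panel genes were matched to GENCODE by their Ensembl identifiers.

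The members and gene lists were chosen with earlier results of these data known. The genes named are the 3 members, the 5 highest and 5 lowest log2 fold changes among genes called and changed alike in all 3 sections (members counted apart), the 5 genes most like each member, tested glia and myelin genes, and examples of the other lists. Neighbouring partners by odds ratio, list members with small counts and the genes compared across member combinations were named after their values were seen. Some genes that the rule names are not reported here.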

Additional observations from a re-analysis of the deposited data

How the results depend on the processing

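The members' log2 fold changes in the splits of non-neuronal cells by *Prx*, *Pmp22* and *Kcna1* kept their direction and passed under every alternative run. Of the results that answer a comparison, 318 values under alternatives were sorted. Of these, 259 kept their direction and side of the threshold, stayed within the spread or, for counts of genes, within a set fold range of the main count. Another 54 moved further, 4 turned and 1 no longer passed. By that range, 54 genes by *Prx* without section 3 in place of 80 counted as kept. Each sum was paired with the other sum of its section. Without this replicate block, 81, 74, 83 and 77 genes passed by *Prx*, *Pmp22*, *Kcna1* and *Scn10a*, in place of 80, 73, 74 and 70. Leaving out 1 section in turn gave 54 to 77, 48 to 60, 59 to 65 and 44 to 63 genes. Library size alone moved the median of all genes from -0.01 to -0.16 by *Pmp22* and from 0.01 to 0.11 by *Scn10a*, and limma moved it to -0.17 by *Pmp22* and -0.36 by *Kcna1*.

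Fewer genes passed with at least 20 other transcripts (28 by *Prx*, 33 by *Pmp22*, 45 by *Kcna1*), in ungated cells (24, 31, 30) and, in cells thinned to 10 other transcripts, by *Prx* (53) and *Pmp22* (45). By *Kcna1*, 43 passed with limma and 42 where 2 transcripts made a cell positive. By *Scn10a*, 35 passed with limma, 30 in neurons with a sum of 10 or more, 24 in neurons without *Prx* and *Ndrg1*, and 18 after thinning to 30 transcripts. In that comparison *Prx* was at 0.57 after thinning and no longer passed, and *Pmp22* turned to -0.018 after thinning and to -0.45 with no filter on low counts, where it passed (edgeR adjusted p = 0.0319). *Ptn*, which did not pass, turned to 0.076 (neuronal sum of 0) and 0.0024 (library size without the members) by *Prx*, and, between -0.20 and 0.13 with 1 section left out, to 0.13 without section 1, and to 0.31 (at least 20 other transcripts) by *Pmp22*.

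Per cell in place of CPM, the log2 ratio of non-neuronal cells over neurons was 1.39 for *Prx*, -1.31 for *Pmp22*, which turned, and 0.15 for *Kcna1*. That of neurons with no *Scn10a* over 3 or more was 0.42, -1.02 (turned) and 0.48, and that of ungated over gated cells 2.73, 2.57 and 3.10. With no minimum of other transcripts, non-neuronal over neurons was 4.95, 2.18 and 3.64, and ungated over gated was 3.83 for *Prx*. With neurons from a sum of 10, *Prx* was at 4.90 over neurons and *Pmp22* at 0.52 by *Scn10a*. With a total without the members, *Pmp22* was at 1.95 over neurons and *Prx* at 3.79 over gated cells. With a gate of 3 transcripts, ungated over gated was 5.04, 4.86 and 5.08.

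All 3 members were in 2.36% of cells with at least 20 other transcripts, and at least 1 member in 29.8% from 10 and 13.9% from 20. The log2 odds ratios of *Prx* with *Pmp22*, *Prx* with *Kcna1* and *Pmp22* with *Kcna1* were 2.53, 1.61 and 1.56 from 1 other transcript, 2.97 for *Prx* with *Kcna1*, 3.81 and 2.85 for the others from 10, and 4.99, 3.92 and 4.28 from 20. They were 2.57, 1.64 and 1.64 by Mantel-Haenszel, 2.01, 1.04 and 1.07 in ungated cells, and 3.40 and 1.97 for the pairs with *Prx* where 2 transcripts made a cell positive. The cause of these shifts was not tested. Cells of few transcripts limit what a count of 0 shows, since a gene can be missed in a cell of this depth.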
